A study of Mus musculus with 16 samples.

Results

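10 genes of hepatic insulin signalling and FOXO action were followed across knockout and fasting: the insulin receptor gene Insr, its adaptors Irs1 and Irs2, the phosphoinositide 3-kinase subunit gene Pik3r1, the kinase genes Akt1 and Akt2, the transcription factor genes Foxo1 and Foxo3, the pseudokinase gene Trib1 and the secreted binding protein gene Igfbp1. They were chosen by gene symbol. They were represented by 13 probe sets (groups of oligonucleotides on the array that report 1 transcript region) of the 21780 paired with exactly 1 symbol, which makes 10 of the 19935 genes tested. Each gene was read by 1 probe set, the one with the highest mean; Insr, Irs1 and Akt2 each had a second one.

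The study asked how liver gene expression depends on PPARβ/δ, the nuclear receptor for fatty acids encoded by Ppard. Total liver RNA was taken from 16 male mice, whose background was a mix of Sv129 and C57Bl/6 in both genotypes, and hybridised to Affymetrix whole-transcript arrays, with 1 array for each mouse. The groups were 3 PPARβ/δ knockout (KO) mice fasted for 24 h, 4 KO fed mice, 5 wild-type (WT) mice fasted for 24 h and 4 WT fed mice. The submitters state 4 to 5 mice for each group, yet only 3 arrays are labelled KO fasted. The age of the mice is not stated. The labels name no Cre driver or other limit of the knockout to a tissue. All values below are log2 of the authors' normalized intensity, and every difference is KO minus WT or fasted minus fed on that log2 scale, given ± its standard error from limma.

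Insulin binds its receptor on hepatocytes, and the phosphorylated adaptors recruit phosphoinositide 3-kinase, which leads to activation of AKT. AKT phosphorylates FOXO proteins, which are then held out of the nucleus. In fasting, insulin falls and FOXO proteins act on genes of gluconeogenesis and stress resistance, and on Irs2 and Igfbp1, whose transcription insulin is known to suppress in liver. Most of this control lies in phosphorylation and in where the proteins are, which an array of RNA does not measure.

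The insulin response element described for the Igfbp1 promoter contains the letters CAAAACA, and GTAAACA is the core sequence that forkhead proteins bind. Both were searched on either strand in the 250 bases upstream of each transcription start in RefSeq (build GRCm38.p6), a table that held 8 of the 10 genes in 13 windows. CAAAACA was found upstream of 3 of these genes, in 3 of the 13 windows, and 5.56% of all 32851 windows held it. GTAAACA was found upstream of 1 gene, Akt1, 161 to 155 bases before the start, in 1 of the 13 windows, and 3.17% of all windows held it. The windows of the 3 genes with the first motif are shown because Irs2 and Igfbp1 are the classic insulin-suppressed genes of the set and Irs1 is the other adaptor; capitals mark CAAAACA or its reverse complement TGTTTTG. The match lay 108 to 102 bases before the start in Igfbp1 (chr11:7197537-7197786, plus strand), 37 to 31 bases before it in Irs2 (chr8:11008930-11009179, minus strand), and 111 to 105 and 32 to 26 bases before it in Irs1 (chr1:82291440-82291689, minus strand).
Igfbp1: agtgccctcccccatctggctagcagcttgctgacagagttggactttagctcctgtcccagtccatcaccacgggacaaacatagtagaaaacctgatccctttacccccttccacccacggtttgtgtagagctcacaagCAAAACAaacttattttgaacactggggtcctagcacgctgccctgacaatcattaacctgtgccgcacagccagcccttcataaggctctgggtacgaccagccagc
Irs2: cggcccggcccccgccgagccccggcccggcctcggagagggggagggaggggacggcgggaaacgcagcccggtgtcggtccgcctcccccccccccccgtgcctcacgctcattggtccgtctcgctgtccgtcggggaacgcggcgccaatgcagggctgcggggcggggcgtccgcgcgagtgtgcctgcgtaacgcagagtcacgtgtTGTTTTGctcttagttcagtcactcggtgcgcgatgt
Irs1: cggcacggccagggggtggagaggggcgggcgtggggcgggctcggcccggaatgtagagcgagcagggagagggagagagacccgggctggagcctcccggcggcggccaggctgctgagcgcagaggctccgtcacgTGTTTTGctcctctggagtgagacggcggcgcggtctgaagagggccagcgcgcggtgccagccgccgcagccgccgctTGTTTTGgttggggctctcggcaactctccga
The upstream window of Foxo1 (chr3:52268087-52268336, plus strand), the only one of the 10 genes that passed the fasting test, is given beside them and held neither motif.
Foxo1: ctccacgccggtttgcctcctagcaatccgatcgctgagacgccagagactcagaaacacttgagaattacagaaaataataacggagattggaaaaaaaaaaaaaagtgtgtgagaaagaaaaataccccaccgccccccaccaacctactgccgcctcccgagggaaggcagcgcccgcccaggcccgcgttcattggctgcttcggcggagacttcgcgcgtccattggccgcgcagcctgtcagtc

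Hepatocyte markers (7 measured, none dim) summed to an intensity of 21211 to 25262 in all 16 arrays, as the labelled tissue would have. Other cell types moved with some mice. Kupffer cell and macrophage markers (8 measured, none dim) summed to 675 to 815 in KO fasted mice and 907 to 993 in KO fed mice, against 436 to 705 in WT fasted mice and 567 to 684 in WT fed mice, so the fed genotypes were apart. Sinusoidal endothelial markers (6 measured, none dim) summed to 836 to 976 in KO fasted mice and 773 to 1006 in KO fed mice, against 638 to 809 in WT fasted mice and 710 to 1040 in WT fed mice, so the sums of the fasted genotypes were apart. Most of that gap lay in Clec4g (309 to 460 in KO fasted mice against 170 to 270 in WT fasted mice). Lyve1 was also apart (22.5 to 31.7 against 15.3 to 20.3), and Stab2, Kdr, Pecam1 and Fcgr2b overlapped. Acute phase genes summed to 16164, 10851, 13514 and 23098 in KO fed mice 1 to 4, against 10561 to 12146 in WT fed mice, and results were also computed without KO fed mice 1 and 4. KO fed mouse 3, which also lay above all WT fed mice, stayed in those fits. Skeletal muscle markers summed to 647 in KO fasted mouse 1, 379 in WT fed mouse 2 and 1420 in WT fed mouse 4, and to 45.3 or less elsewhere. Pancreas markers (7 measured, 4 dim) summed to 299.5 in WT fasted mouse 5, against 38.2 to 62.1 elsewhere, and adipocyte markers (5 measured, 3 dim) to 149 in WT fasted mouse 1, against 29.7 to 48.7 elsewhere. The high adipocyte sum was that of Cidec alone (125.9). Adipoq, Plin1, Lep and Retn of that mouse lay within the range of the other mice, so the sum does not show adipose tissue there. All 6 neutrophil markers were dim. Ppard itself differed by -0.08 between KO and WT in fasted mice (adjusted p = 0.908, limma) and by -0.39 in fed mice (adjusted p = 0.266); no source used here states which part of the gene was deleted, so this probe set checks nothing about the genotype. In bulk tissue, fewer cells of a type and less RNA per cell cannot be told apart.

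**Figure D1:**
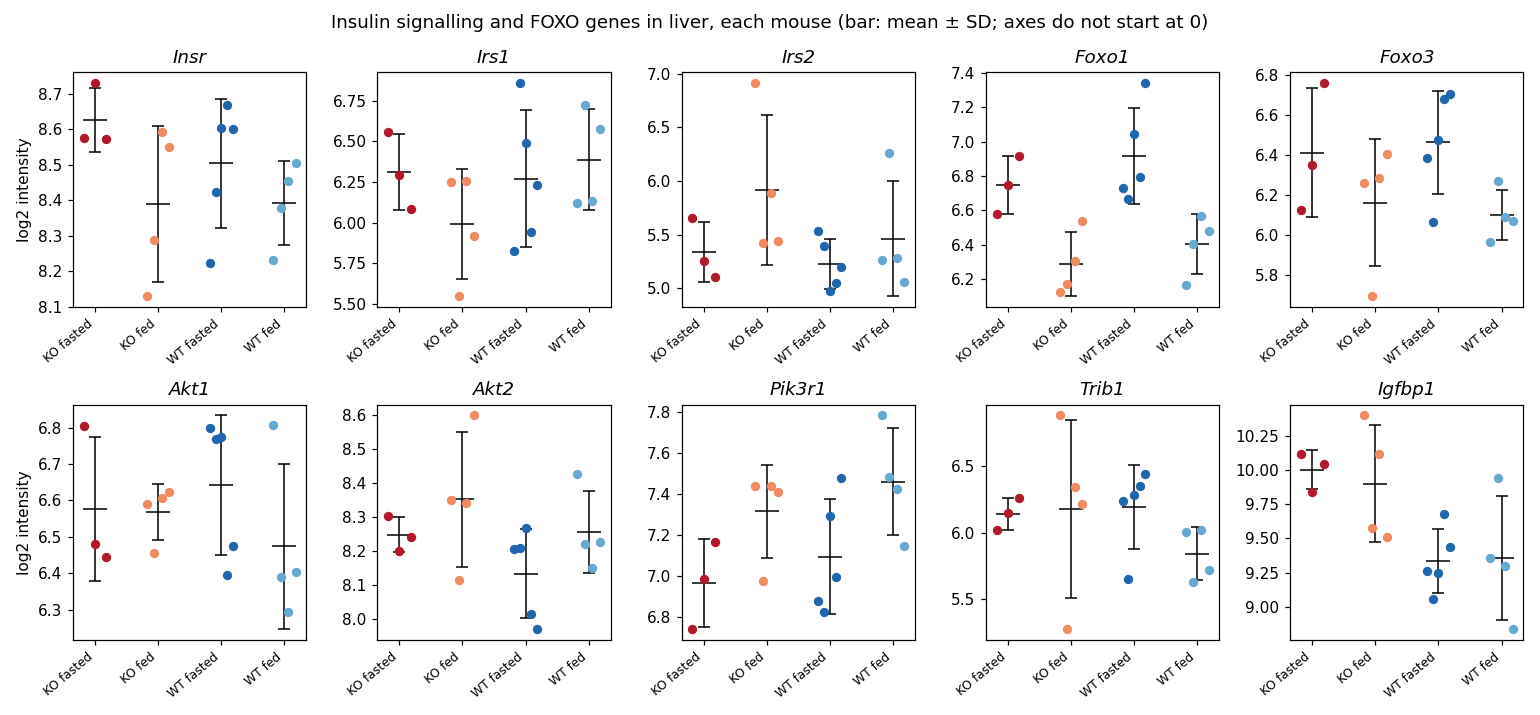
Log2 intensity of the 10 genes in each mouse, with 1 point for each array and bars for the mean ± SD of KO fasted, KO fed, WT fasted and WT fed mice; the vertical axes differ between genes and do not start at 0. Foxo1 was higher in fasted than in fed mice of either genotype with no overlap, and Igfbp1 of all KO fasted mice lay above that of all WT fasted mice.

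Foxo1 rose with fasting in WT mice and in the mean of both genotypes, and no other of the 10 genes passed the fasting test. Foxo1 encodes the main FOXO factor of liver, through which low insulin signalling raises gluconeogenic genes. Its log2 intensity was 6.58, 6.75 and 6.92 in KO fasted mice, against 6.12, 6.17, 6.31 and 6.54 in KO fed mice. It was 6.73, 6.67, 7.04, 6.79 and 7.34 in WT fasted mice, against 6.16, 6.40, 6.57 and 6.48 in WT fed mice. The lowest fasted mouse lay above the highest fed mouse in either genotype, by a small gap in KO mice. The mean fasting change over both genotypes was 0.49 ± 0.10, or 1.40-fold (adjusted p = 0.00375; 95% interval 0.27 to 0.70). Within genotypes it was 0.46 ± 0.15 in KO mice (adjusted p = 0.118) and 0.51 ± 0.13 in WT mice (adjusted p = 0.0217). The WT call was lost without WT fed mouse 1 (0.43, adjusted p = 0.079). Without WT fasted mouse 5, which had the highest Foxo1 and the high pancreas markers, the WT change was 0.40 (adjusted p = 0.0432) and the mean change 0.43 (adjusted p = 0.00311); the part of pancreas RNA in Foxo1 was not tested. The mean change passed in all 25 other settings, with adjusted p between 0.000426 and 0.0163. The genotypes did not differ in this response beyond its error (difference -0.05 ± 0.20, adjusted p = 0.941, 95% interval -0.48 to 0.38).

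The count of genes called was read against the whole array. In the mean of both genotypes, 1 of the 10 genes passed, a rise, while 10.9% of all genes passed in either direction and 4.48% rose. Within WT mice it was 1 of 10 against a background of 9.22%, and within KO mice 0 of 10 against 3.67%. At an unadjusted p under 0.05 the counts were 4 of 10 in the mean (21.1% of all genes), 3 of 10 in WT mice (22.6%) and 1 of 10 in KO mice (15.3%). Fasted and fed mice did not overlap for 1 of 10 genes in KO mice (13.2% of all genes) and for 1 of 10 in WT mice (12.2%), and that gene was Foxo1 both times. Their median fasting change was 0.05 in KO mice and 0.04 in WT mice, beside -0.02 and 0.02 over all genes.

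Foxo3, the second FOXO factor of liver, gave 6.12, 6.35 and 6.76 in KO fasted mice and 6.26, 5.69, 6.28 and 6.40 in KO fed mice. It gave 6.39, 6.07, 6.48, 6.68 and 6.70 in WT fasted mice and 5.97, 6.27, 6.09 and 6.07 in WT fed mice. The fasted means were the higher ones, but the ranges overlapped in both genotypes. The mean difference was 0.31 ± 0.12 (adjusted p = 0.13), made of 0.25 ± 0.18 in KO mice and 0.36 ± 0.16 in WT mice. Over the 16 arrays, which share feeding state and normalization, Foxo1 and Foxo3 had a Pearson correlation of 0.74, given as a description.

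Pik3r1 encodes p85α, the regulatory subunit that brings phosphoinositide 3-kinase to the adaptors, and it was the gene nearest to the test after Foxo1. It read 6.74, 6.99 and 7.17 in KO fasted mice, against 7.44, 6.98, 7.44 and 7.41 in KO fed mice. It read 6.88, 6.83, 7.29, 6.998 and 7.48 in WT fasted mice, against 7.78, 7.48, 7.42 and 7.15 in WT fed mice. Fasted mice were lower on average, and KO fed mouse 2 lay among the fasted KO mice. The difference was -0.36 ± 0.12 in the mean (adjusted p = 0.058; 95% interval -0.60 to -0.11), with nearly equal values of -0.35 ± 0.17 in KO mice (adjusted p = 0.358) and -0.37 ± 0.15 in WT mice (adjusted p = 0.16). The mean difference passed in 7 of 25 other settings, with adjusted p between 0.0221 and 0.223. It passed without KO fed mouse 2 (-0.42, adjusted p = 0.023, limma), WT fasted mouse 5 (-0.41, 0.0224) or WT fed mouse 4 (-0.41, 0.0303). It did not pass without any other single mouse.

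The adaptor Irs2 showed no detectable rise with fasting in these livers. Its values were 5.65, 5.25 and 5.11 in KO fasted mice, against 6.92, 5.43, 5.89 and 5.44 in KO fed mice. In WT mice they were 5.53, 5.40, 4.98, 5.05 and 5.19 after fasting, against 5.26, 6.26, 5.28 and 5.06 in the fed state. The highest mouse of each fed group, KO fed mouse 1 and WT fed mouse 2, stood well above the fasted mice, KO fed mouse 3 lay just above them, and the other fed mice lay within their range. The difference was -0.58 ± 0.31 in KO mice (adjusted p = 0.417; 95% interval -1.25 to 0.08), -0.23 ± 0.28 in WT mice (adjusted p = 0.664; -0.82 to 0.35) and -0.41 ± 0.21 in the mean (adjusted p = 0.291; -0.85 to 0.04). The interval of the mean difference thus holds no rise above 0.04. Without WT fed mouse 2 the WT value was 0.03.

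Igfbp1, the hepatic binding protein of insulin-like growth factors whose transcript insulin represses, showed no detectable fasting change. It read 10.11, 9.84 and 10.04 in KO fasted mice, against 10.40, 9.57, 10.12 and 9.51 in KO fed mice. It read 9.26, 9.06, 9.25, 9.68 and 9.44 in WT fasted mice, against 9.36, 9.94, 9.30 and 8.84 in WT fed mice. Fed mice spread over a wider range than fasted mice in either genotype and enclosed all WT fasted values. The fasting difference was 0.10 ± 0.23 in KO mice (adjusted p = 0.91; 95% interval -0.39 to 0.59), -0.02 ± 0.20 in WT mice (adjusted p = 0.963; -0.45 to 0.41) and 0.04 ± 0.15 in the mean (adjusted p = 0.941; -0.29 to 0.36). Over the 16 arrays the correlation of Irs2 with Igfbp1 was 0.65 and with Foxo1 -0.57, again as a description.

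Insr, the receptor, read 8.58, 8.73 and 8.57 in KO fasted mice and 8.13, 8.29, 8.59 and 8.55 in KO fed mice. It read 8.22, 8.42, 8.60, 8.67 and 8.60 in WT fasted mice and 8.23, 8.38, 8.45 and 8.51 in WT fed mice. These are the narrowest distributions of the set beside those of Akt1, with 0.60 between the lowest and highest of all mice. The fasting difference was 0.24 ± 0.12 in KO mice, 0.11 ± 0.11 in WT mice and 0.17 ± 0.08 in the mean (adjusted p = 0.228), and a second Insr probe set gave 0.17 in the mean (adjusted p = 0.194).

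Irs1, the adaptor less tied to fasting in liver than Irs2, read 6.56, 6.29 and 6.09 in KO fasted mice, against 6.25, 5.55, 6.26 and 5.91 in KO fed mice. It read 5.82, 6.86, 6.49, 5.94 and 6.23 in WT fasted mice, against 6.12, 6.73, 6.13 and 6.57 in WT fed mice. Groups overlapped throughout, and the fasting difference was 0.32 ± 0.23 in KO mice, -0.12 ± 0.21 in WT mice and 0.10 ± 0.16 in the mean (adjusted p = 0.812). The 3 mice with skeletal muscle transcripts, KO fasted 1, WT fed 2 and WT fed 4, had Irs1 at 6.56, 6.73 and 6.57, above all other mice of their groups, while the highest Irs1 of all mice (6.86) was in WT fasted mouse 2, with muscle markers at 35.8. The part of muscle RNA in Irs1 was not tested. A second Irs1 probe set lay between 1.96 and 2.26, below the dim limit of 2.79.

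The AKT kinases varied within narrow ranges. Akt1 lay between 6.45 and 6.80 in KO fasted mice, 6.46 and 6.62 in KO fed mice, 6.40 and 6.80 in WT fasted mice, and 6.29 and 6.81 in WT fed mice, and its mean fasting difference was 0.09 ± 0.09 (adjusted p = 0.667). Akt2, the isoform that carries most of the metabolic action of insulin, lay between 8.20 and 8.30 in KO fasted mice, 8.12 and 8.60 in KO fed mice, 7.97 and 8.27 in WT fasted mice, and 8.15 and 8.43 in WT fed mice, with a mean fasting difference of -0.11 ± 0.07 (adjusted p = 0.422). The 95% intervals ran from -0.10 to 0.27 for Akt1 and from -0.26 to 0.04 for Akt2. A second Akt2 probe set lay between 7.60 and 8.27 over all mice. Its mean fasting difference was -0.07 ± 0.08 (adjusted p = 0.725, limma), with -0.13 in KO mice and -0.01 in WT mice. Its mean KO minus WT difference was 0.06 ± 0.08.

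Trib1 encodes a pseudokinase that targets C/EBPα for degradation and affects hepatic lipid synthesis. It read 6.02, 6.15 and 6.26 in KO fasted mice, against 6.89, 5.28, 6.35 and 6.21 in KO fed mice. In WT mice it was 6.24, 5.65, 6.29, 6.36 and 6.44 after fasting, against 6.01, 5.63, 6.02 and 5.72 in the fed state. KO fed mice held both the highest and the lowest value of all. The WT difference was 0.35 ± 0.23 (adjusted p = 0.393) and the mean difference 0.16 ± 0.18 (adjusted p = 0.715).

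**Figure D2:**
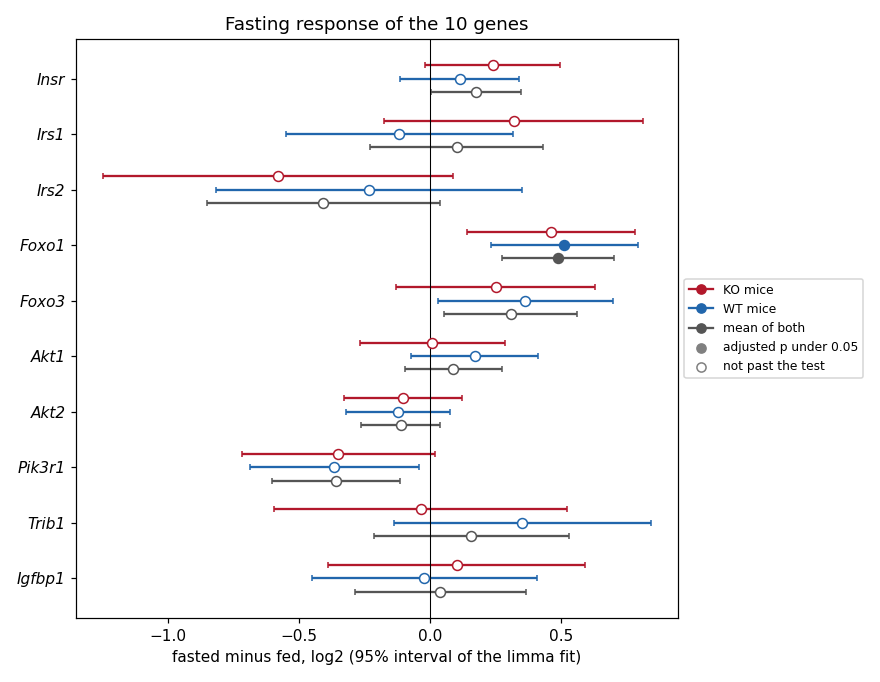
Fasted minus fed log2 difference of each of the 10 genes with its 95% interval from the limma fit, for KO mice, WT mice and their mean; filled points have an adjusted p under 0.05. Foxo1 in WT mice (0.51) and in the mean (0.49) are the filled points, and the intervals of Igfbp1 straddle 0 in all 3 rows.

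Knockout of PPARβ/δ moved none of the 10 genes past the test, and Igfbp1 came closest. All 3 KO fasted mice (9.84 to 10.11) had more Igfbp1 than all 5 WT fasted mice (9.06 to 9.68). In fed mice the genotypes overlapped, since KO fed mice 2 and 4 (9.57 and 9.51) lay below WT fed mouse 2 (9.94). The difference was 0.66 ± 0.22 in fasted mice (adjusted p = 0.268; 95% interval 0.20 to 1.13) and 0.54 ± 0.21 in fed mice (adjusted p = 0.276; 0.09 to 0.99). Their mean was 0.60 ± 0.15, or 1.52-fold (unadjusted p = 0.00117, adjusted p = 0.0639). The effects in fasted and fed mice did not differ beyond their error (0.12 ± 0.31, adjusted p = 0.893).

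The mean Igfbp1 difference lay at the edge of the threshold. It passed when dim genes were left out (adjusted p = 0.0446), with array weights (0.0463), and without WT fed mouse 2 (0.70, adjusted p = 0.0197), KO fed mouse 2 (0.66, 0.0437) or KO fed mouse 4 (0.67, 0.0462), and its adjusted p over all 25 other settings was 0.0197 to 0.159. Without KO fed mice 1 and 4, the mice with the highest acute phase sums, it was 0.57 (adjusted p = 0.125). The summed Kupffer cell and macrophage markers were higher in KO than in WT mice in the fed state without overlap (907 to 993 in KO mice against 567 to 684 in WT mice). Their sums overlapped in the fasted state (675 to 815 in KO mice against 436 to 705 in WT mice). There Clec4f alone of these markers was apart (169.8 to 206.8 in KO mice against 106.6 to 152.1 in WT mice). The summed sinusoidal endothelial markers were apart in the fasted state (836 to 976 in KO mice against 638 to 809 in WT mice), where Igfbp1 was apart too, and overlapped in the fed state. Among the endothelial markers only Clec4g and Lyve1 were apart in fasted mice. The part of either cell type in the Igfbp1 difference was not tested.

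No other gene came near. In fed mice the KO minus WT difference was 0.46 ± 0.29 for Irs2 (adjusted p = 0.536), -0.40 ± 0.22 for Irs1 (adjusted p = 0.461) and 0.34 ± 0.24 for Trib1 (adjusted p = 0.588). Trib1 was -0.03 there without KO fed mice 1 and 4. In fasted mice it was -0.17 ± 0.15 for Foxo1 and 0.12 ± 0.12 for Insr. In the mean of both feeding states it was 0.28 ± 0.21 for Irs2, -0.18 ± 0.16 for Irs1, 0.14 ± 0.18 for Trib1, -0.14 ± 0.10 for Foxo1, -0.14 ± 0.12 for Pik3r1, 0.11 ± 0.07 for Akt2 and 0.06 ± 0.08 for Insr. It was 0.01 ± 0.12 for Foxo3 and 0.01 ± 0.09 for Akt1.

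Calls between genotypes were rare across the array. In fasted mice 0 of the 10 genes were called by limma and 0.537% of all genes were, in fed mice 0 of 10 against 0.677%, and in the mean 0 of 10 against 1.55%. At an unadjusted p under 0.05 the count was 1 of 10 each time, against 10.4% of all genes in fasted mice, 13.2% in fed mice and 10.8% in the mean. KO and WT mice did not overlap for 1 of 10 genes in fasted mice, Igfbp1, against 8.25% of all genes, and for 0 of 10 in fed mice, against 6.70%. The fasting response differed between genotypes for 0 of 10, and for 0.0100% of all genes (0 of 10 and 12.2% at an unadjusted p under 0.05). The widest such differences among the 10 were 0.44 ± 0.31 for Irs1 (adjusted p = 0.563), -0.39 ± 0.35 for Trib1 (adjusted p = 0.652) and -0.35 ± 0.42 for Irs2 (adjusted p = 0.75). Their errors show that a difference of that size was not detectable with these arrays.

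**Figure D3:**
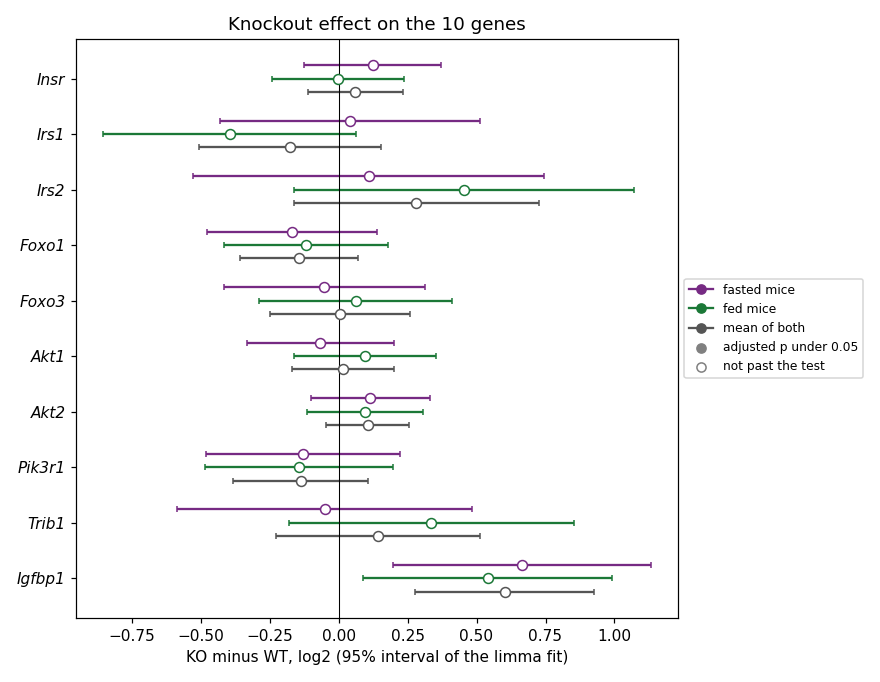
KO minus WT log2 difference of each of the 10 genes with its 95% interval from the limma fit, in fasted mice, in fed mice and in their mean; filled points would mark an adjusted p under 0.05, and there are none. Igfbp1 is the gene whose intervals lie above 0 in all 3 rows (0.66, 0.54 and 0.60).

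Other genes of the pathway were counted from 6 lists with 117 of 129 entries measured; the other 12 were not analysed here. Few genes of the insulin signal from receptor to mTOR passed the fasting test. Of 16 proximal signalling genes, none passed in KO mice and 1 fell in WT mice, Shc1, an adaptor to the Ras pathway. The WT call of Shc1 was lost without WT fed mouse 1 or 2 or WT fasted mouse 4 or 5; in the mean of both genotypes it fell (-0.29 ± 0.07, adjusted p = 0.0086; 0.0572 without KO fed mice 1 and 4). Of 20 genes of phosphoinositide 3-kinase, AKT and mTOR, none passed in KO mice and 1 rose in WT mice, Mtor, the growth kinase (0.51 ± 0.14, adjusted p = 0.0294), which failed in 7 of 26 other fits, among them those without WT fed mouse 2, 3 or 4 or WT fasted mouse 1 or 2. Pik3r3, another regulatory subunit of phosphoinositide 3-kinase, fell by 0.36 in the mean of both genotypes (adjusted p = 0.0112). Background shares for these counts were 1.87% rising and 1.80% falling in KO mice, and 3.30% rising and 5.92% falling in WT mice.

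Among 20 brakes on insulin signalling, 2 rose and none fell in KO mice (1.87% and 1.80% of all genes), while 3 rose and 2 fell in WT mice (3.30% and 5.92%). Without KO fed mice 1 and 4, or without KO fasted mouse 1, the rises in KO mice numbered 1. Trib3, a pseudokinase reported to bind and inhibit AKT, read 5.42, 5.27 and 5.32 in KO fasted mice, against 3.96, 4.36, 4.60 and 4.44 in KO fed mice. It read 5.41, 4.49, 5.47, 5.10 and 5.14 in WT fasted mice, against 3.92, 3.64, 4.42 and 4.01 in WT fed mice. No fasted mouse overlapped with a fed mouse of its genotype, and the mean change was 1.06 ± 0.14 (adjusted p = 7.33e-05). Cblb, a ubiquitin ligase, rose by 0.79 ± 0.10 in the mean (adjusted p = 7.16e-05). Ptprf, a receptor phosphatase that acts on the insulin receptor, fell by 0.56 (adjusted p = 0.00194), and Grb10, an adaptor that inhibits the receptor, fell by 0.38 (adjusted p = 0.00478). Socs1, an inhibitor of cytokine and insulin signalling, passed in WT mice only narrowly (0.24 ± 0.07, adjusted p = 0.0415) and failed in 13 of 26 other fits. Socs3, its relative, read 7.85, 4.73, 4.74 and 5.91 in KO fed mice, against 4.26 to 4.49 in WT fed mice. All KO fed mice lay above the WT fed mice, and mice 1 and 4, those with the highest acute phase sums, did so by most. The difference of 1.46 did not pass (adjusted p = 0.153).

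The FOXO family and its cofactors gave 14 genes, of which 1 fell in KO mice (1.80% of all genes) and 2 fell in WT mice (5.92%). Xpo1, the exportin that carries FOXO proteins out of the nucleus, fell by 0.54 in the mean of both genotypes (adjusted p = 0.000924) and passed in all 25 other settings. Within genotypes its call was less firm: in KO mice it was lost without KO fed mice 1 and 4 (-0.53, adjusted p = 0.172), without KO fed mouse 1 and without KO fasted mouse 1, 2 or 3. In WT mice it passed in 18 of 26 other fits and was lost with quantile normalization, without WT fed mouse 1, 3 or 4 or WT fasted mouse 2, 4 or 5, and in a fit of the WT groups alone. Ywhab, a 14-3-3 protein of the family that retains phosphorylated FOXO in the cytoplasm, fell by 0.38 (adjusted p = 0.00076). Foxo4 differed by -0.03 ± 0.11 in KO mice and 0.15 ± 0.10 in WT mice and did not pass. Foxo1 was thus the FOXO gene that passed the test among the 3 named here.

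Of 30 genes listed as FOXO targets, 6 rose and none fell in KO mice (1.87% and 1.80% of all genes), and 8 rose and 1 fell in WT mice (3.30% and 5.92%). In the mean of both genotypes 10 rose and 1 fell (4.48% and 6.39%). The list's median fasting change was 0.34 in KO mice and 0.10 in WT mice, beside -0.02 and 0.02 over all genes. Bnip3, a mitophagy receptor, read 9.09, 9.15 and 8.97 in KO fasted mice, against 7.75, 7.51, 7.96 and 7.45 in KO fed mice. It read 9.74, 9.37, 9.63, 9.47 and 9.25 in WT fasted mice, against 8.23, 7.86, 7.85 and 7.81 in WT fed mice. All fasted mice were above all fed mice, and Bnip3 rose by 1.40 ± 0.14 in KO mice (adjusted p = 2.61e-05) and by 1.55 ± 0.12 in WT mice (adjusted p = 7.6e-07). Pnpla2, the adipose triglyceride lipase, rose by 0.89 ± 0.13 in the mean (adjusted p = 0.000168), and the stress gene Sesn2 by 0.67 ± 0.10 (adjusted p = 0.000321). Sesn3, its relative, fell by 0.61 in WT mice (adjusted p = 0.00726). Gadd45a was the target that fell in the mean of both genotypes. Its change was -0.57 without KO fed mice 1 and 4, and its call was lost without KO fasted mouse 2 or 3.

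Of the gluconeogenic targets, Pck1 passed the fasting test in WT mice and G6pc in neither genotype. Pck1, the gene of cytosolic phosphoenolpyruvate carboxykinase, read 11.30, 11.26 and 11.41 in KO fasted mice, against 10.55, 10.75, 11.09 and 10.77 in KO fed mice. It read 11.47, 11.29, 11.43, 11.41 and 11.39 in WT fasted mice, against 9.95, 10.65, 10.79 and 10.68 in WT fed mice. Fasted values lay above fed values in either genotype; the rise was 0.88 ± 0.14 in WT mice (adjusted p = 0.000648), and the KO difference of 0.53 ± 0.16 did not pass (adjusted p = 0.0778). G6pc, the glucose-6-phosphatase gene, differed by 0.04 ± 0.25 in KO mice (adjusted p = 0.971) and -0.46 ± 0.22 in WT mice (adjusted p = 0.231). Ppargc1a, a coactivator of gluconeogenic genes, rose by 0.74 ± 0.22 in the mean (adjusted p = 0.0345). It passed in neither genotype alone (0.83 in KO mice and 0.66 in WT mice). KO fasted mice read 4.36, 4.99 and 6.12, and KO fed mice reached 4.81, so these groups overlapped. Gadd45b, a stress-response gene, rose by 1.55 ± 0.30 in WT mice (adjusted p = 0.00302), and the difference in KO mice was 0.80 ± 0.34 (adjusted p = 0.257). The KO count of 6 rises depended on the arrays used. It was 2 without KO fed mice 1 and 4, 3 without KO fed mouse 1, 3, 3 and 1 without KO fasted mouse 1, 2 or 3, 9 without KO fed mouse 3, and 3 in a fit of the KO groups alone.

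By list median, the widest fasting response of the 6 lists was in genes that insulin induces in liver. In KO mice 10 of 17 fell (1.80% of all genes) and in WT mice 10 of 17 fell (5.92%), with list medians of -1.34 and -1.22. Thrsp, a regulator of lipogenesis, read 4.98, 5.11 and 6.36 in KO fasted mice, against 9.01, 8.03, 8.59 and 8.90 in KO fed mice. It read 5.47, 5.03, 6.39, 5.51 and 6.14 in WT fasted mice, against 6.61, 7.79, 8.38 and 6.79 in WT fed mice. Fasted and fed mice were apart in both genotypes, and Thrsp fell by 2.42 in the mean (adjusted p = 2.7e-05). Srebf1, the lipogenic transcription factor that insulin induces through AKT, fell by 1.47 in KO mice (adjusted p = 0.00149) and by 1.64 in WT mice (adjusted p = 6.6e-05). Gys2, the liver glycogen synthase, went the other way and rose by 0.74 ± 0.14 in WT mice (adjusted p = 0.00339). Without KO fed mice 1 and 4 the counts of falls were 9 in KO mice and 10 in WT mice.

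**Figure D4:**
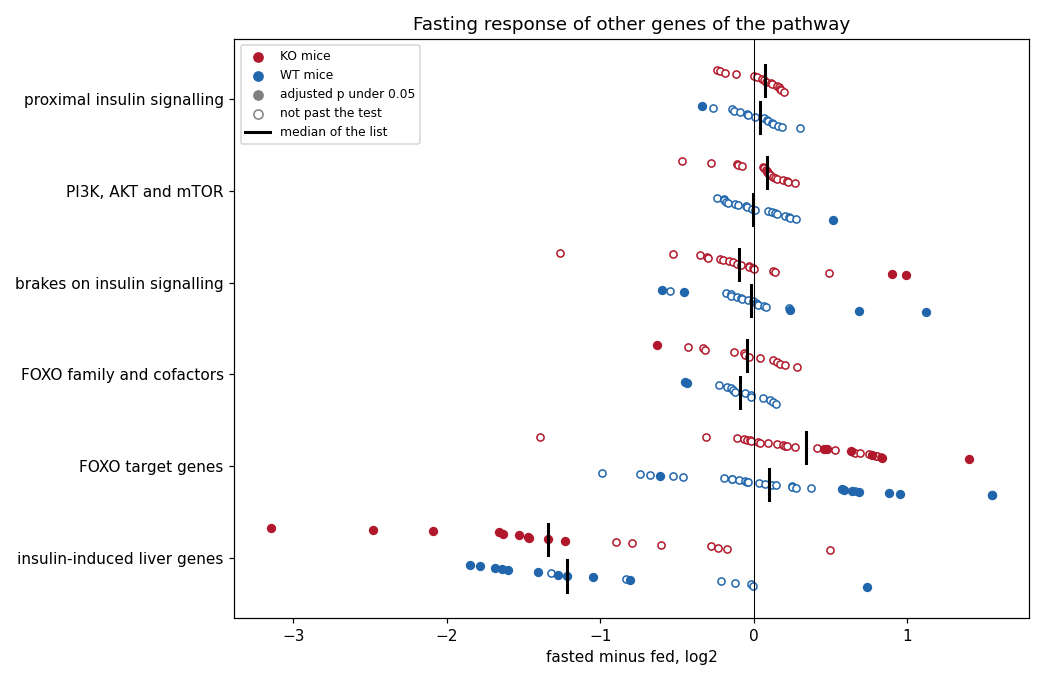
Fasted minus fed log2 difference of each measured gene of the 6 pathway lists, for KO mice (upper row of each list) and WT mice (lower row); filled points have an adjusted p under 0.05 and black bars are list medians. Genes of proximal signalling and of phosphoinositide 3-kinase, AKT and mTOR lie between -0.47 (Pik3r3 in KO mice) and 0.51 (Mtor in WT mice). Insulin-induced liver genes reach -3.15 (Thrsp in KO mice), with list medians of -1.34 and -1.22.

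Between genotypes, few of these genes passed. Background shares were 0.451% higher and 0.226% lower in fed mice, 0.351% and 0.186% in fasted mice, and 0.963% and 0.587% in the mean. Inpp5d, the gene of the phosphatase SHIP1 known mainly from blood-derived cells, was the 1 of 20 brakes that passed, in fed mice and in the mean. It read 3.99, 4.01 and 3.89 in KO fasted mice, against 3.67, 3.62, 3.87, 3.72 and 3.86 in WT fasted mice. In the fed state it read 4.08, 4.23, 4.05 and 4.04 in KO mice, against 3.66, 3.78, 3.77 and 3.73 in WT mice. All KO mice were above all WT mice of the same feeding state, and the mean difference was 0.29 ± 0.05 (adjusted p = 0.00881; 0.0269 without KO fed mice 1 and 4). The call in fed mice held in 16 of 26 other fits and was lost without KO fed mice 1 and 4 (0.40, adjusted p = 0.129). The summed Kupffer cell and macrophage markers given above were likewise apart in fed mice, though not in fasted mice. Of these markers Clec4f alone was apart in fasted mice (169.8 to 206.8 in KO mice against 106.6 to 152.1 in WT mice). The summed endothelial markers were apart in fasted mice, though not in fed mice, and among them only Clec4g and Lyve1 were apart in fasted mice. The part of either cell type in the Inpp5d difference was not tested. Of the 17 insulin-induced genes, none passed in fed mice, 2 were lower in KO fasted than in WT fasted mice and 3 were lower in the mean, where the list's median was 0.18, beside -0.01 over all genes. The malic enzyme gene Me1 and the pyruvate kinase gene Pklr were the 2 in fasted mice, at -1.13 ± 0.24 (adjusted p = 0.0441) and -1.05 ± 0.21 (adjusted p = 0.0321), calls that held in 11 and 18 of 26 other fits. In the mean of both states they differed by -0.79 ± 0.16 (adjusted p = 0.0203) and -0.72 ± 0.15 (adjusted p = 0.0173). The mean calls of both were lost without KO fed mice 1 and 4 (adjusted p = 0.109 and 0.105), and that of Pklr also without KO fasted mouse 2. Pparg, a lipogenic nuclear receptor, was the third in the mean (-0.36 ± 0.08, adjusted p = 0.0292), a call that held in 15 of 25 other settings and was lost without KO fed mice 1 and 4 (-0.31, adjusted p = 0.155). None of the 30 FOXO targets and none of the 14 genes of the FOXO family and its cofactors passed between genotypes in fasted mice, in fed mice or in the mean.

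The genes most like a member in pattern were taken as the 5 with the highest Pearson correlation over the 16 arrays among 11960 genes that were not dim. For Igfbp1 they were B3gnt3 (0.82), Mme (0.79), Csrnp1 (0.73), Selenbp1 (0.72) and Galnt11 (0.72). Mme, the gene of the peptidase neprilysin, read 5.02, 6.10 and 4.27 in KO fasted mice, against 2.29 to 2.42 in WT fasted mice. It read 5.68, 3.78, 4.95 and 4.83 in KO fed mice, against 2.36, 4.64, 2.66 and 2.85 in WT fed mice, where mouse 2, the mouse with the highest Igfbp1 of the WT mice, was again the high one. For Irs2 they were Kifc3 (0.87), the cytokine gene Il1b (0.84), Dnajb2 (0.83), Hes6 (0.82) and Ccdc124 (0.81). This likeness rested in part on KO fed mouse 1: Il1b was 5.64 there and 2.31 to 3.43 in the other mice, and without that mouse its correlation was 0.58 and that of Kifc3 0.70. For Insr they were Srsf4 (0.87), Marf1 (0.86), Abca6 (0.85), Narf (0.84) and Pik3ca (0.83), the last a catalytic subunit of phosphoinositide 3-kinase. For Trib1 they were Gadd45g (0.83), Coq10b (0.82), Gcc1 (0.80), Plk3 (0.80) and Pfkfb3 (0.80). Without KO fed mouse 1 the 5 correlations ran from 0.69 to 0.81 for Trib1, 0.61 to 0.83 for Igfbp1 and 0.79 to 0.87 for Insr. The points of each correlation share arrays, feeding state and genotype, and no test was made of them.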

How the data were processed

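The authors deposited 1 normalized intensity for each probe set and array, made with RMA per the submitters' processing notes, which name no version. These intensities are linear (array medians 8.08 to 8.61), and log2 was taken here. Of 35519 probe sets, 21780 were paired with 1 symbol in the platform annotation, 1605 with several and 12134 with none. The probe set with the highest mean stood for each of 998 genes that had more than 1, which left 19935 genes.

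One limma fit (version 3.58.1, R 4.3.3; lmFit and eBayes, no intensity trend) of 4 group means over 16 arrays had 12 residual and 4.55 prior degrees of freedom. It gave 7 contrasts: fasting in KO mice, in WT mice and their mean, knockout in fasted mice, in fed mice and their mean, and the difference between the genotypes' fasting responses. Tests were two-sided, with Benjamini-Hochberg adjustment over all genes within a contrast and a threshold of 0.05. Genes with a mean under the 40th percentile (log2 2.79) are called dim. The number of arrays limits the precision.

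The 10 members, the lists, the markers and the naming rule were chosen with earlier results of these data known. The rule named the members, up to 3 called genes per list and direction, and a few set genes; the rest are counted only. The labels call the mice biological replicates. Alternatives were quantile normalization, median centring, leaving out dim genes, other choices of probe set, a trended robust variance, array weights, a replicate block, the groups of a contrast alone, leaving out KO fed mice 1 and 4, and leaving out each array in turn. The counts for the lists, and the fits behind the listed genes, were run under these after seeing the data. Simulated data with known changes served to test the model. Promoter sequences are RefSeq's (GRCm38.p6); no source used here names the array's build.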

Additional observations from a re-analysis of the deposited data

Results flagged for a closer look

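In 30 groups of 4 or 5 mice (the 10 genes in KO fed, WT fasted and WT fed mice), 2 held a mouse far from the others by Dixon's criterion, and chance flags about 1 group in 20. Pik3r1 in KO fed mouse 2 was 6.98, with the next KO fed mouse at 7.41. Trib1 in WT fasted mouse 2 was 5.65, with the next WT fasted mouse at 6.24. No difference in the fasting response of a member between genotypes passed its test.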

How the results depend on the processing

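The tally covers 47 of the 70 tests of the 10 genes, under 26 other settings. The remaining tests are left out of it and of the sign changes below. Of 1197 recomputed changes, 1147 kept direction and side of the threshold and 13 newly passed. Another 1 no longer passed and 36 changed sign, none of these 36 past the test. The count of genes called moved as follows, and the cause was not tested. With the replicate block it was 1 for fasting in KO mice (Foxo1 0.50, adjusted p = 0.0114, limma, where the other settings gave up to 0.374) and 2 in the mean of both genotypes. That mean count was also 2 without dim genes, with the trended robust variance and with array weights, each time by adding Pik3r1. For knockout in the mean of feeding states it was 1 without dim genes and with array weights (Igfbp1). Leaving out 1 array gave counts of 0 to 1 for fasting in WT mice, 1 to 2 for the mean fasting change and 0 to 1 for the mean knockout change. Signs changed under other settings as follows: Igfbp1 mean fasting with array weights (-0.01) and the block (-0.0046); Akt1 mean knockout with the block (-0.02); the Foxo1 genotype difference with median centring (0.01), array weights (0.01) and the block (0.09). Without KO fed mice 1 and 4, Trib1 was -0.03 for knockout in fed mice, and for mean knockout Foxo3 was -0.08, Akt1 -0.0038 and Trib1 -0.04. Leaving out 1 array, the ranges were -0.03 to 0.27 (Igfbp1, fasting in KO), -0.37 to 0.03 (Irs2, fasting in WT), -0.2 to 0.17 (Igfbp1, fasting in WT), -0.05 to 0.14 (Igfbp1, mean fasting), -0.08 to 0.08 (Foxo3, mean knockout), -0.04 to 0.07 (Akt1, mean knockout), -0.13 to 0.06 (Foxo1, genotype difference) and -0.07 to 0.3 (Igfbp1, genotype difference). The sample titles do not say whether mice with the same replicate number share anything else. Deviations of 21 same-numbered pairs correlated at -0.25 to 0.23 (median 0.07), and of 74 other pairs at -0.34 to 0.29 (median -0.04). A batch or order shared by replicate number was not tested. Over all genes, 732 were called for fasting in KO mice, 218 without KO fed mice 1 and 4, 401 in the fit of those groups alone, and 330 to 951 with 1 array left out. For fasting in WT mice 1838 were called, and 1199 without WT fed mouse 3. For knockout in fasted mice the count was 107, 185 with array weights, and 21 to 126 with 1 array left out. For knockout in fed mice it was 135, 51 without KO fed mice 1 and 4, 76 in those groups alone, and 59 to 274 with 1 array left out. For the mean knockout change it was 309, 171 without KO fed mice 1 and 4, and 175 to 359 with 1 array left out. For the genotype difference in the fasting response it was 2, and 0 to 8 with 1 array left out. With 3 to 5 arrays a group, changes as small as most of those seen in the 10 genes could not be told from their error.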
